A study of Mus musculus with 16 samples.

Results

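ABC transporter genes encode membrane proteins of the ATP-binding cassette family. They were taken as all genes on the array with an Abca to Abcg symbol, apart from the bile salt and sterol exporters Abcb11, Abcg5 and Abcg8. The rule gave 44 genes, read by 50 probes, among the 36824 features of the array. The genes fell into 15 of the ABCA, 8 of the ABCB, 10 of the ABCC, 3 of the ABCD, 1 of the ABCE, 3 of the ABCF and 4 of the ABCG subfamily. RefSeq's gene table for GRCm38.p6 listed all 44 symbols. Expression was measured in livers of 8 male mice heterozygous for a knockout of Lpl (Lpl+/-) and 8 male wild type littermates, all fed a chow diet. The sources used here do not give their age, their strain or the deleted part of the gene. Each mouse was hybridised on 2-colour arrays against a common pool made from 9 wild type livers.

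Each value is a log ratio, likely of mouse over pool, taken as log10, so that 0 is the level of the pool and a fold rests on that base. If the values were log2, every fold would lie closer to 1. A ratio to a liver pool holds no level, so levels of different genes cannot be compared and the liver origin cannot be checked through marker levels. Array medians lay between -0.0045 and 0.0072, and each array had 0 to 88 values at the limit of 2 in size, none of them in an ABC gene. Over all probes, the lowest correlation among the 120 pairs of arrays was that of wild type 5 and wild type 8 (r = -0.352). The next lowest were close, at -0.294 (wild type 4 and wild type 8) and -0.287 (wild type 5 and Lpl+/- 4). Both arrays also ran along with others, at 0.381 for wild type 7 and wild type 8 and 0.364 for wild type 4 and wild type 5. So these values do not single out either array as reversed. The direction of wild type 5 and wild type 8 is still not settled. The statements below that rest most on either array are therefore also given with its sign turned. Small differences of single genes should be read with this in mind. Turning wild type 5 changed the sign of the difference in 3 of 44 ABC genes, and turning wild type 8 in 5 of 44. Size moved by over 1.5 times, or the sign changed, in 22 and 24 genes. Lpl, the targeted gene, lay between -0.573 and -0.208 with a median of -0.362 in Lpl+/- livers, against -0.0622 to 0.0496 with a median of -0.0234 in wild type livers (limma adjusted p = 0.0158). This sign went into the choice of direction and is not separate evidence.

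ABC proteins use the energy of ATP to move lipids, bile constituents, conjugated drugs, peptides and metabolites across membranes. Hepatocytes carry them on the canalicular side, facing bile, on the sinusoidal side, facing blood, and in mitochondria, peroxisomes and lysosomes. ABCE and ABCF proteins share the ATP-binding cassette but span no membrane and act on ribosomes and translation. Several liver ABC genes are known targets of nuclear receptors, of the oxidant sensor Nrf2 or of clock output factors such as Dbp.

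The promoters of 3 genes that varied between mice or were set against partner genes below are shown, from 250 bases before to 50 bases after the start in RefSeq (GRCm38.p6), 5′ to 3′ on the gene's strand. Abca8a lies at chr11:110095888-110096187 (minus strand), Abcb1a at chr5:8566841-8567140 (plus strand) and Abcb4 at chr5:8893471-8893770 (plus strand). Capitals mark the motifs found.
Abca8a: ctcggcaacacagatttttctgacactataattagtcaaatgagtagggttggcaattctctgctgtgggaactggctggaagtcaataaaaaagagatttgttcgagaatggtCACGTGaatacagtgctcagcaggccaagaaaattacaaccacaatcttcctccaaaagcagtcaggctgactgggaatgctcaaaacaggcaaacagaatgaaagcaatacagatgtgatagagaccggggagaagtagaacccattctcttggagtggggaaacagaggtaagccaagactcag
Abcb1a: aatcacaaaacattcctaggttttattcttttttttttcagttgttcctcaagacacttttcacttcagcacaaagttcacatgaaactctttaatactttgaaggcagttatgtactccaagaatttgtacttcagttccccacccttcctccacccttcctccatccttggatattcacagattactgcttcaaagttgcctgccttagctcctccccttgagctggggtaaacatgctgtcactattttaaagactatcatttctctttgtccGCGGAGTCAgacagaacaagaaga
Abcb4: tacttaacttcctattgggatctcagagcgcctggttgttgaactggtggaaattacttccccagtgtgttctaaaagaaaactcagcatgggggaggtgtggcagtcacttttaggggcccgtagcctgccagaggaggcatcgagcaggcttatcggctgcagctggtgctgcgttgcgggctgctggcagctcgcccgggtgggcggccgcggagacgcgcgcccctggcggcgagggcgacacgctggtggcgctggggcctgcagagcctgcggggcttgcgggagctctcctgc

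The motifs searched on both strands were the antioxidant response element core TGACNNNGC, the D-box forms TTACGTAA and TTATGTAA, direct repeats of AGGTCA spaced by 1 or by 4 bases, and the E-box CACGTG. No marked motif overlapped another. The Abca8a window held 1 E-box, as did windows of 6 of the 34 ABC genes with a RefSeq window and 7.15% of all windows of the same length. The Abcb1a window held 1 antioxidant response element core, read as GCGGAGTCA on the printed strand. That core was in windows of 5 of the 34 genes and in 12.4% of all windows. The D-boxes and direct repeats were in none of the 34 genes' windows and in 0.0152% to 0.938% of all windows. The Abcb4 window held none of these letters. A match describes these letters only.

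No ABC gene passed the threshold between Lpl+/- and wild type livers. By limma, 0 of 44 were called at an adjusted p of 0.05, against 0.0163% of all features. An unadjusted p under 0.05 was reached by 2 of 44, or 4.55%, against 5.6% of all features. By the exact permutation test over the mice it was 3 of 44, and the share over all features was not computed for that test. In none of the 44 did the ranges of the groups lie apart, which they did in 0.038% of all features. In all, 24 genes stood higher and 20 lower in Lpl+/- livers, or 54.5% higher, against 51% of all features. The median difference was 0.00339, against 5.31e-04 over all features. The 95% interval of the difference stayed within 1.5-fold either way in 40 of 44 genes, and within 2-fold in 44 of 44. Abca8a, Abcb1a, Abcc3 and Abcd2 had the wider intervals. A p above the threshold does not show that the groups are alike.

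**Figure D1:**
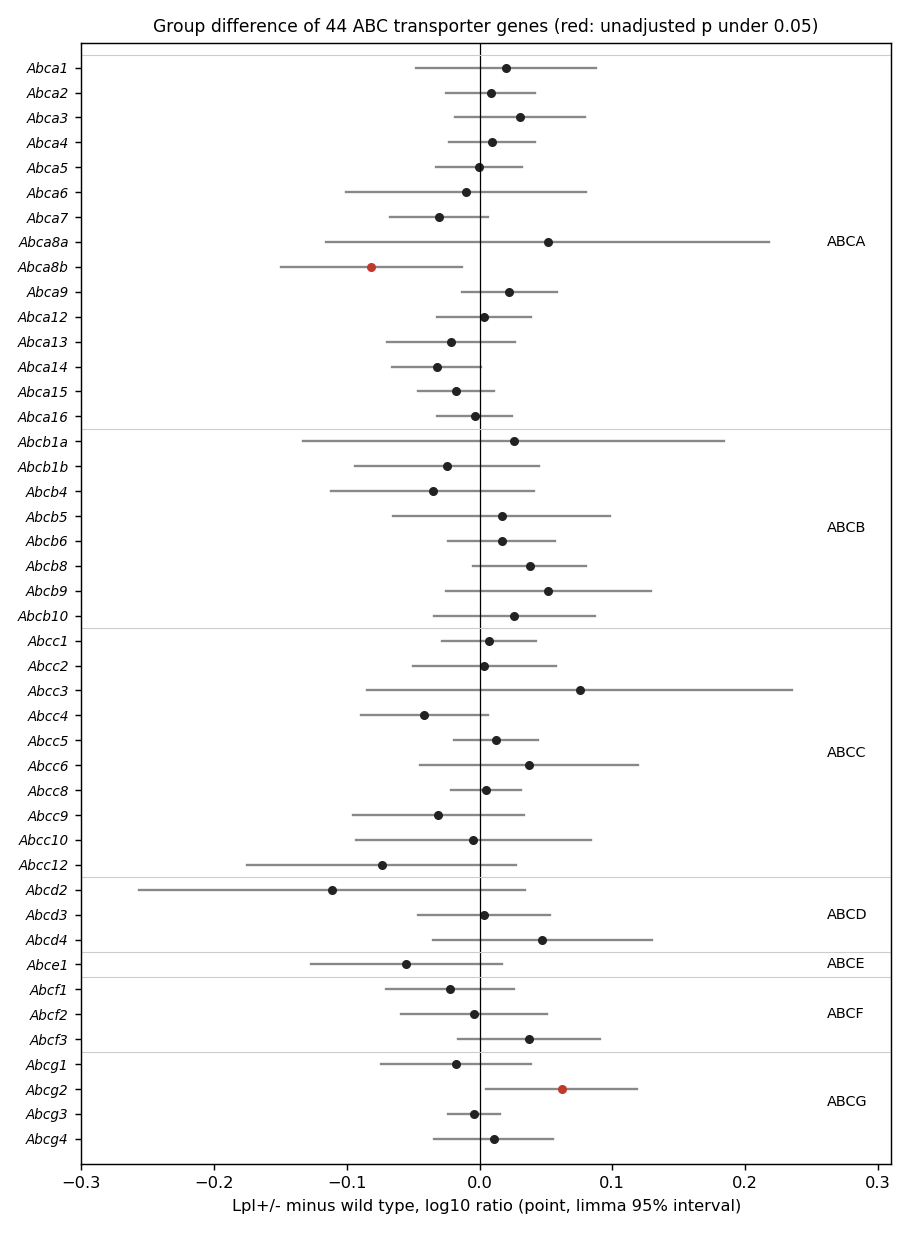
Difference between Lpl+/- and wild type livers for each of the 44 ABC genes (log10 ratio, horizontal axis), grouped by subfamily, with the limma 95% interval as a line and n = 8 mice per group. The intervals include 0 for all genes but Abca8b and Abcg2, drawn in red, and the widest belong to Abca8a, Abcb1a, Abcc3 and Abcd2.

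Subfamilies had median differences close to 0, and none of their genes was called. ABCA genes had 7 higher and 8 lower, with a median difference of -4.88e-04. ABCB genes had 6 higher and 2 lower (median 0.0212), and ABCC genes 6 higher and 4 lower (median 0.00413). In ABCD 2 were higher and 1 lower, in ABCF 1 higher and 2 lower, and in ABCG 2 higher and 2 lower. Abce1, which splits ribosomes after translation, is the only ABCE gene and had a difference of -0.0553.

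Among ABCA genes, Abca8b had the smallest p. It belongs to a tandem cluster of lipid transporter genes on chromosome 11. Its ratio ran from -0.156 to 0.0246 with a median of -0.0612 in Lpl+/- livers, against -0.0647 to 0.113 with a median of 0.0313 in wild type livers. The groups overlapped, and the difference was -0.0816, or 0.829-fold (95% interval 0.708 to 0.970, limma adjusted p = 0.836, exact permutation p = 0.0331). It stayed at an unadjusted p under 0.05 in 27 of 29 alternatives. Its close relative and neighbour Abca8a had the opposite sign, averaging 0.0499 ± 0.165 in Lpl+/- livers, against -0.00136 ± 0.174 in wild type livers (SD, n = 8 each, limma adjusted p = 0.907). That difference of 0.0512 became 0.00108 with wild type 8 turned. The sources used here do not say whether the probes of these related genes keep them apart.

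Abca1 loads cholesterol and phospholipid onto apolipoprotein A-I, the first step of HDL formation. It lay between -0.0696 and 0.103 (median 0.0260) in Lpl+/- livers, against -0.0970 to 0.124 (median 4e-04) in wild type livers, and the ranges nearly coincided. Its difference was 1.05-fold (95% interval 0.896 to 1.22, limma adjusted p = 0.911). Abca14, of a gene cluster on chromosome 7, had a narrow wild type range of -0.0073 to 0.0194 (median 0.00515), inside its Lpl+/- range of -0.110 to 0.0343 (median -0.0189). Its SD in Lpl+/- mice was 3.90 times that in wild type mice, and 2.49 times without Lpl+/- 4 at -0.110 (limma adjusted p of the difference between groups = 0.836). Abca7, an exporter of phospholipids, ran from -0.0563 to 0.0454 (median -0.0108) in Lpl+/- livers, against -0.0426 to 0.0806 (median 0.0100) in wild type livers (limma adjusted p = 0.836).

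In the ABCB subfamily, Abcb4 is the canalicular floppase that supplies phosphatidylcholine to bile. It lay between -0.112 and 0.0472 (median -0.0348) in Lpl+/- livers, against -0.117 to 0.151 (median -0.0311) in wild type livers. The medians were close, and wild type 7 (0.151) and wild type 8 (0.118) stood above every Lpl+/- mouse. With its sign turned, wild type 8 stood below every mouse, and the difference of -0.0353 became -0.00571. Its difference was 0.922-fold (95% interval 0.773 to 1.10, limma adjusted p = 0.861). Abcb8, a transporter of the mitochondrial inner membrane, lay between -0.0300 and 0.108 (median 0.0299) in Lpl+/- livers, against -0.0403 to 0.0883 (median -0.00848) in wild type livers. The overlap was broad (1.09-fold, limma adjusted p = 0.836). Its 2 probes differed by 0.0172 and 0.0583 between the groups, and only the second was at an unadjusted p under 0.05 (limma adjusted p = 0.834).

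ABCC genes include exporters of conjugates and subunits of potassium channels. Abcc2, which secretes glutathione and glucuronide conjugates into bile, lay between -0.0490 and 0.0655 (median -0.00345) in Lpl+/- livers, against -0.0849 to 0.108 (median -0.0070) in wild type livers. The Lpl+/- range lay inside the wild type range, and the difference was 1.01-fold (95% interval 0.890 to 1.14, limma adjusted p = 0.984). Abcc4, a sinusoidal exporter of bile acids and cyclic nucleotides, lay between -0.103 and 0.0395 (median -0.0304) in Lpl+/- livers, against -0.0612 to 0.0670 (median -5e-04) in wild type livers. Its 2 probes moved together over the mice (r = 0.829) and stood at differences of -0.0248 and -0.0587 (limma adjusted p = 0.847 and 0.834).

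ABCD proteins import fatty acids into peroxisomes, or, for Abcd4, serve vitamin B12 in lysosomes. Abcd2, the carrier of very long and polyunsaturated acyl chains, showed the largest difference in size among the 44 genes with the arrays as deposited. It lay between -0.284 and -0.0085 (median -0.163) in Lpl+/- livers, against -0.292 to 0.258 (median -0.0241) in wild type livers. All 8 Lpl+/- mice were below the pool, and wild type mice stood on both sides of it, from wild type 8, lower than any Lpl+/- mouse, to wild type 4 at the top. With its sign turned, wild type 8 was the highest mouse at 0.292. The difference was 0.774-fold (95% interval 0.554 to 1.08, limma adjusted p = 0.836), and both probes had this sign (r between them = 0.960). On the log10 scale, the difference of -0.111 became -0.184 with wild type 8 turned (limma adjusted p = 0.774), -0.0765 with wild type 5 turned and -0.0695 without wild type 4. With wild type 5 turned, that of Abcc3 was larger, at 0.104. Abcd3, a major membrane protein of liver peroxisomes, lay between -0.0813 and 0.0566 (median -7.5e-04) in Lpl+/- livers, against -0.0537 to 0.0541 (median -0.0254) in wild type livers, at 1.01-fold (limma adjusted p = 0.984).

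Abcg2, an exporter of urate, drugs and sulfate conjugates into bile, had the second smallest p. It ran from -0.0278 to 0.115 (median 0.0578) in Lpl+/- livers, against -0.128 to 0.0787 (median -0.0133) in wild type livers. Of 8 Lpl+/- mice 6 lay above 0, and the groups overlapped (1.15-fold, 95% interval 1.01 to 1.31, limma adjusted p = 0.836, exact permutation p = 0.0438). It was at an unadjusted p under 0.05 in 14 of 28 alternatives. Abcg1, a sterol exporter prominent in macrophages, lay between -0.0981 and 0.0651 (median -0.0561) in Lpl+/- livers, against -0.0842 to 0.0349 (median -0.0156) in wild type livers (limma adjusted p = 0.904).

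Abce1, Abcc12 and Abcb10 lie on chromosome 8, as Lpl does, at 135, 219 and 563 measured genes from it on the side of Ocel1. Abce1 lay between -0.128 and 0.0576 (median -0.0380) in Lpl+/- livers, against -0.0928 to 0.150 (median 0.00685) in wild type livers. Abcc12, whose transported molecules are not established, lay between -0.260 and 0.0745 (median -0.115) in Lpl+/- livers, against -0.126 to 0.156 (median -0.0504) in wild type livers. In Abcc12, 4 of 8 Lpl+/- mice were below the lowest wild type mouse. Abcb10, a mitochondrial protein needed for haem synthesis, lay between -0.0132 and 0.0876 (median 0.0142) in Lpl+/- livers, against -0.121 to 0.0889 (median 0.0126) in wild type livers. The differences were 0.881-fold, 0.844-fold and 1.06-fold (limma adjusted p = 0.836, 0.836 and 0.869). Leaving out single mice moved Abcc12 between -0.0992 and -0.0474. With wild type 8 turned, the differences became -0.0313 in Abce1, -0.0349 in Abcc12 and 0.00393 in Abcb10, against -0.0553, -0.0738 and 0.0263 as deposited, and Abcb10 stood at 0.0427 with wild type 5 turned.

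Mice differed most in Abca8a, Abcc3, Abcb1a and Abcd2, and in each of these the SD within groups (0.148 to 0.169) exceeded the difference between the groups as deposited. With wild type 8 turned, the Abcd2 difference of -0.184 was larger in size than its SD of 0.147. The SD within groups had a median of 0.0527 over the 44 genes, against 0.0417 over all features, and 29 of 44 lay above that value. Of the 44, 5 (11.4%) lay above 0.0943, the value that 10% of all features exceed. The SD was larger in Lpl+/- than in wild type mice in 23 of 44 genes, or 52.3%, against 50.3% of all features. Over all 16 mice, 7 genes spanned more than 2-fold, and the share over all features was not computed.

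**Figure D2:**
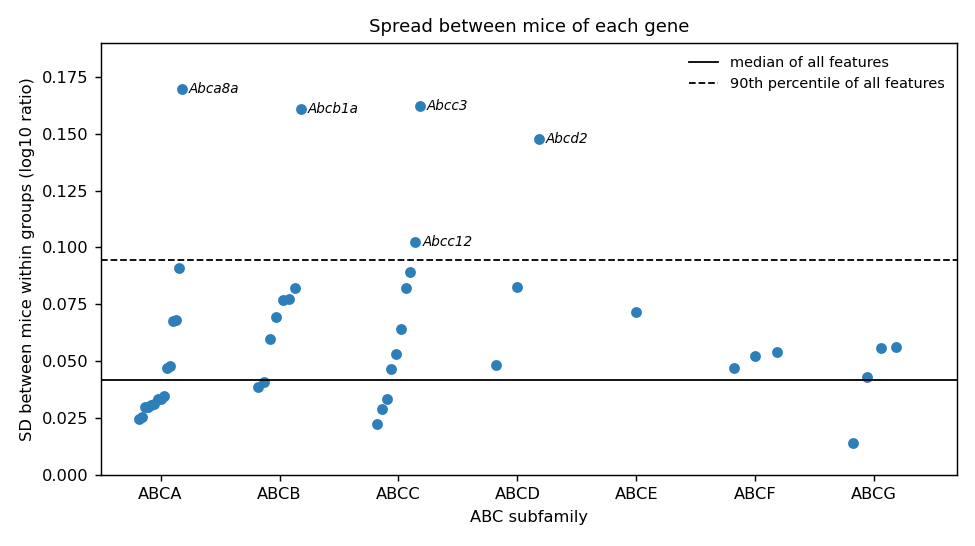
SD between mice within groups (log10 ratio, 16 mice, group means removed) for each ABC gene, by subfamily, with the median of all 36824 features (solid line) and the value that 10% of them exceed (dashed line). Abca8a, Abcc3, Abcb1a, Abcd2 and Abcc12 lie above the dashed line, and most ABCA genes lie below the solid one.

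Abca8a and Abcc3 varied most and in much the same mice. Abca8a lay between -0.295 and 0.198 (median 0.0929) in Lpl+/- livers, against -0.215 to 0.271 (median 0.0120) in wild type livers, a 3.68-fold span over all mice. Abcc3, which exports glucuronides and bile acids from hepatocytes into blood, lay between -0.284 and 0.275 (median 0.0706) in Lpl+/- livers, against -0.236 to 0.194 (median 0.00185) in wild type livers. Both genes were lowest in Lpl+/- 4 among Lpl+/- mice and in wild type 9 and wild type 8 among wild type mice, and both were high in Lpl+/- 5, wild type 4 and wild type 6. With its sign turned, wild type 8 stood among the high mice, at 0.201 in Abca8a and 0.187 in Abcc3. Without Lpl+/- 4, the Abcc3 difference of 0.0754 became 0.125, still short of the threshold (limma adjusted p = 0.859 with all mice). With wild type 8 turned it was 0.0286.

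Abcb1a, which encodes a P-glycoprotein that exports many drugs, spanned 3.08-fold. It lay between -0.190 and 0.286 (median -0.0682) in Lpl+/- livers, against -0.202 to 0.218 (median -0.0522) in wild type livers. In both groups 3 of 8 mice stood above 0, namely Lpl+/- 1, 2 and 3 and wild type 1, 2 and 5, and its 2 probes ran together over the mice (r = 0.910). Its difference of 0.0257 became 0.0801 with wild type 5 turned and -0.0248 with wild type 8 turned. Abcb1b, its near copy and neighbour on chromosome 5, lay between -0.118 and 0.0502 in Lpl+/- livers, against -0.127 to 0.0626 in wild type livers. As deposited, it stood above 0 in Lpl+/- 1, 2 and 4 and in wild type 1, 7, 8 and 9, a set only partly shared with Abcb1a.

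Abcd2 spanned 3.55-fold, with an SD in Lpl+/- mice 0.451 times that in wild type mice. Abcc12 spanned 2.60-fold and Abca6, another gene of the chromosome 11 cluster, 1.78-fold, with -0.107 to 0.121 (median -0.0031) in Lpl+/- livers, against -0.104 to 0.145 (median 0.00225) in wild type livers. At the other end, Abcg3, a rodent relative of Abcg2, had an SD of 0.0139, smaller than in all but 0.777% of features, and lay between -0.0204 and 0.0045 (median -0.00575) in Lpl+/- livers, against -0.0287 to 0.0252 (median -0.0063) in wild type livers. Abcc8, the sulfonylurea receptor of pancreatic beta cells, had an SD of 0.0223, with -0.0179 to 0.0720 (median -0.00135) in Lpl+/- livers and -0.0180 to 0.0202 (median 0.0070) in wild type livers. Abca16 had an SD of 0.0246, with -0.0319 to 0.0399 (median -0.00385) in Lpl+/- livers and -0.0202 to 0.0506 (median -0.00293) in wild type livers. Its 2 probes did not run together over the mice (r = 0.00374), nor did those of Abca12 (r = 0.162), a lipid transporter known from skin.

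**Figure D3:**
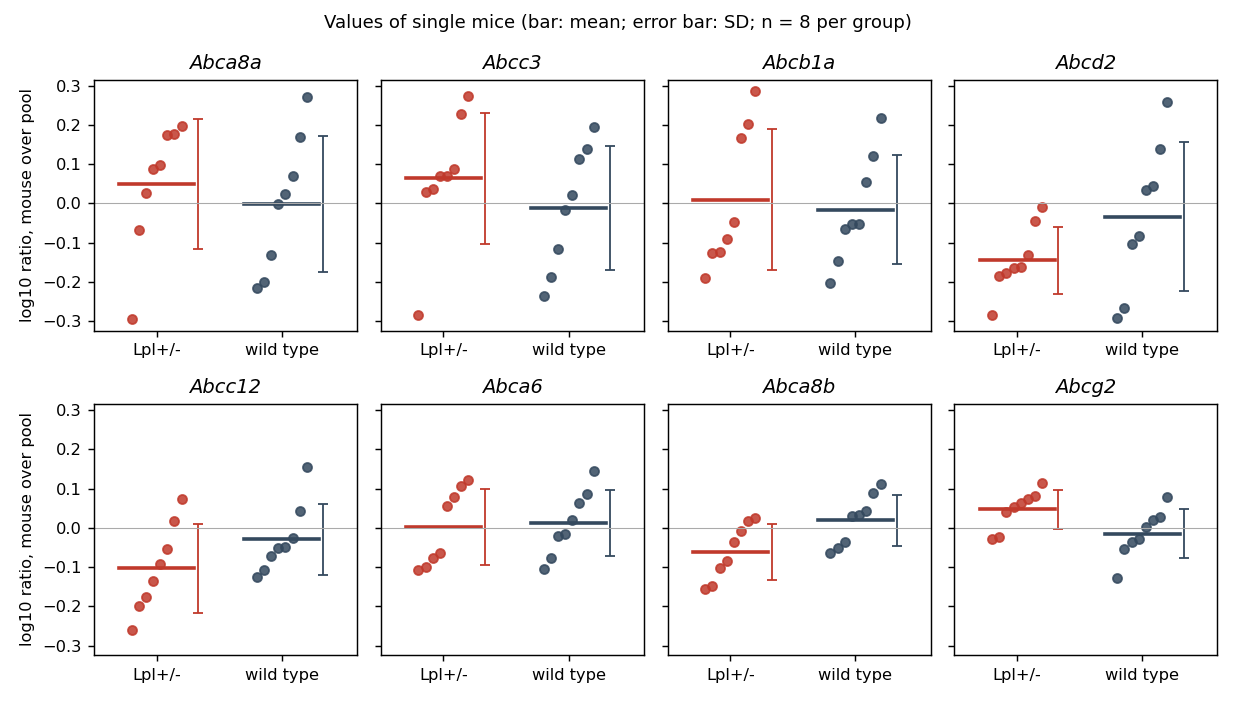
Log10 ratio of mouse over pool in single mice for the 6 most variable ABC genes and for Abca8b and Abcg2, with Lpl+/- mice (red) left of wild type mice (blue), the mean as a bar and the SD as an error bar, n = 8 per group. The groups overlap in each panel, and the mice spread over more than 3-fold in Abca8a, Abcc3, Abcb1a and Abcd2.

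Many ABC genes varied together from mouse to mouse once the group means were taken out. Of 946 pairs of ABC genes, 73 had a Pearson r beyond 0.7 in size over the 16 mice, 43 positive and 30 negative, or 7.72%, against 2.82% of all pairs of features. With wild type 5, wild type 8 or both turned, 69 pairs passed in each case (7.29%), against 2.78% to 2.83% of all pairs of features. Turning changes the sign of both genes of a pair in that mouse, so these shares could move little and are no separate support. The median SD of the ABC genes was above that of all features, as given above, and its part in these shares was not tested. After adjustment over the 946 pairs, 69 were at a permutation p under 0.05. The matching share over all pairs of features was not computed, so this count cannot be read as particular to ABC genes. All genes of a mouse come from 1 array column, which correlations share.

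The strongest pair was Abcb9, a lysosomal peptide transporter, with Abcd4 (r = 0.935, rho = 0.894, permutation adjusted p = 0.00662, r = 0.884 without the 2 mice farthest from the median of Abcb9). Abcc3 went with Abcc6, a liver gene whose loss causes calcification of connective tissue (r = 0.919, rho = 0.929, permutation adjusted p = 0.00662, r = 0.948 without 2 mice), and with Abca8a (r = 0.897, rho = 0.844, permutation adjusted p = 0.00662, r = 0.798 without 2 mice). Abce1 ran against Abcb9 (r = -0.879, rho = -0.900, permutation adjusted p = 0.00662, r = -0.874 without 2 mice). Abcb4 ran against Abcb10 (r = -0.860, rho = -0.835, permutation adjusted p = 0.0160, r = -0.643 without 2 mice). Abcc9, a potassium channel subunit of contractile and perivascular cells, ran against Abcd4 (r = -0.871, rho = -0.853, permutation adjusted p = 0.00835, r = -0.785 without 2 mice). These pairs were chosen for their size.

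Genes that lie side by side were not chosen for their size. Of 8 neighbouring pairs among 11 ABC genes, 1 had r over 0.7, against 7.72% of all ABC pairs and 2.82% of all pairs of features beyond 0.7 in size. So few pairs do not tell whether neighbours differ from other pairs. The 1 pair was Abca6 with Abca5 on chromosome 11 (r = 0.807, rho = 0.715, permutation adjusted p = 0.0255, r = 0.816 without 2 mice). Abca8b with Abca8a had r = 0.661 (rho = 0.729, permutation adjusted p = 0.0717, r = 0.694 without 2 mice). The P-glycoprotein genes Abcb1a and Abcb1b had r = -0.143 (rho = -0.226, permutation adjusted p = 0.844, r = 0.165 without 2 mice).

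**Figure D4:**
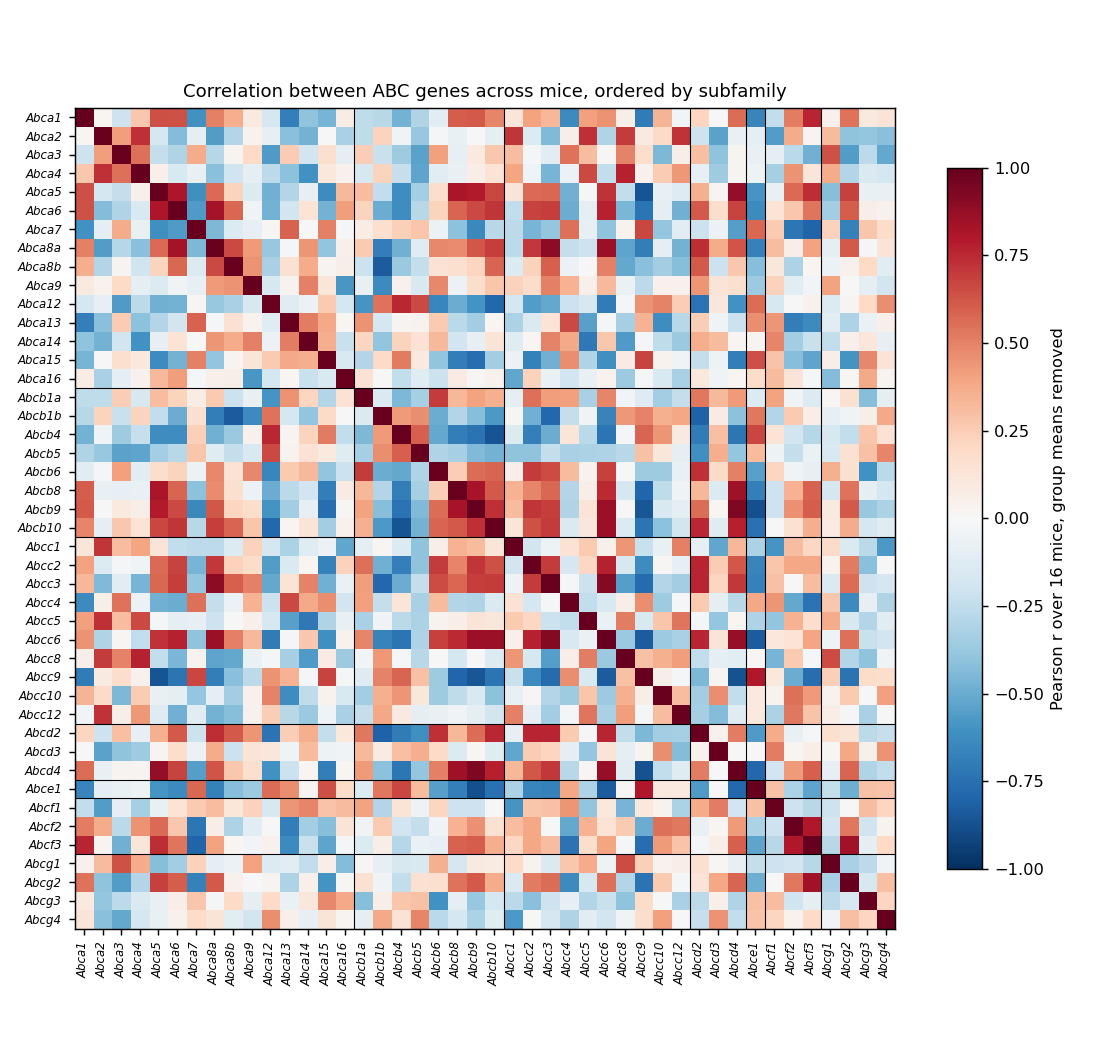
Pearson correlation over 16 mice, with group means removed, between each pair of the 44 ABC genes, ordered by subfamily (black lines), red for genes that vary together and blue for genes that vary against each other. Abcc3, Abcc6, Abcd4 and Abcb9 are red with each other, and Abce1 and Abcb4 are blue against Abcc6, Abcd4 and Abcb9.

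A family of 10 relations was tested, of ABC genes with each other or with a gene of a pathway that is known to act on them. Of these, 4 passed a permutation adjusted p of 0.05 over the family. The relations were chosen with earlier results of these data known, so their p values are not those of a blind choice and may be too small. Abcc3 went with Nqo1, a quinone reductase gene and standard target of Nrf2 (r = 0.891, permutation adjusted p = 1e-04, raw p = 1e-05, the smallest that the permutations can give). Spearman's rho was 0.915 (permutation p = 2e-05, adjusted p = 2e-04), and r was 0.867 without wild type 9 and Lpl+/- 4, the mice farthest from the median. It held in Lpl+/- mice alone (r = 0.865, exact permutation p = 0.0109) and in wild type mice alone (r = 0.953, exact permutation p = 1.24e-04). Nqo1 lies on chromosome 8, 395 measured genes from Lpl. Of all other features, 0.424% were as closely correlated with Abcc3. Over the 23 alternatives, turned signs included, r stayed between 0.870 and 0.911. A turned sign changes both genes at once, so turning is no separate support.

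The hepatocyte marker list also went with Abcc3 (r = 0.783, rho = 0.659, permutation adjusted p = 0.0111 over 28 such relations, r = 0.601 without 2 mice), although rho missed the threshold (permutation adjusted p = 0.054). The stellate cell list ran against it (r = -0.813, rho = -0.815, permutation adjusted p = 0.0091, r = -0.815 without 2 mice), as did the bile duct list (r = -0.824, rho = -0.815, permutation adjusted p = 0.00476, r = -0.867 without 2 mice). The neutrophil list ran against it too (r = -0.778, rho = -0.706, permutation adjusted p = 0.0111, r = -0.563 without 2 mice). In these lists 5 of 6, 5 of 7, 5 of 5 and 3 of 4 measured markers had the sign of their list. The macrophage and Kupffer cell, endothelial and lymphocyte lists did not pass with Abcc3 (r = -0.315, -0.239 and 0.00292, permutation adjusted p = 0.432, 0.587 and 0.992). No list passed with Abcb1a, Abcb4 or Abca1. Many features went with or against Abcc3: 8.76% of all others had an r beyond 0.7 in size with it, against 2.82% of all pairs of features. Within the hepatocyte list Alb had the largest SD, 0.283 in Lpl+/- and 0.159 in wild type livers. The mean of the hepatocyte list lay between -0.201 and 0.105 in Lpl+/- and between -0.133 and 0.0324 in wild type livers. That of the stellate cell list lay between -0.141 and 0.0338 in Lpl+/- and between -0.0817 and 0.0503 in wild type livers. That of the bile duct list lay between -0.0563 and 0.0522 in Lpl+/- and between -0.0563 and 0.0294 in wild type livers, and that of the neutrophil list between -0.193 and 0.217 in Lpl+/- and between -0.156 and 0.102 in wild type livers. In whole liver, fewer cells of a type and less RNA per cell cannot be told apart, and the part of these cells in the relation was not tested.

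Abcb1a was high in the mice in which Dbp was high. Dbp is a clock output factor whose RNA cycles over the day. Its values fell into separate sets, 7 mice between 0.0594 and 0.164 (3 Lpl+/- and 4 wild type) and 9 mice between -0.408 and -0.105 (5 Lpl+/- and 4 wild type), so no single coefficient is given. In the 7 mice with high Dbp, Abcb1a lay between -0.0525 and 0.286, and 6 of 7 were above 0. In the 9 mice with low Dbp it lay between -0.202 and -0.0466, and 0 of 9 were above 0. Turning an array moves its mouse to the other set: Abcb1a was then above 0 in 5 of 6 mice with high Dbp (wild type 5 turned), 7 of 8 (wild type 8 turned) or 6 of 7 (both), and in 0 of those with low Dbp. Turning changes the sign of both genes at once, so these counts cannot test the split. Within the sets no relation passed, with r = -0.360 in the 7 mice (rho = -0.250, exact permutation p = 0.429) and r = 0.104 in the 9 mice (rho = -0.0333, exact permutation p = 0.814). The exception to the split was wild type 4, with high Dbp and Abcb1a at -0.0525.

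Abcb4 passed with Ehhadh, a peroxisomal enzyme gene and PPAR alpha target, but this rested on 2 mice. Ehhadh stood at 0.324 in wild type 7 and 0.319 in wild type 8 and between -0.332 and -0.122 in all other mice, Lpl+/- and wild type. These were also the 2 mice with the highest Abcb4 values. With its sign turned, wild type 8 had Ehhadh at -0.319 and Abcb4 at -0.118, and the relation still passed (permutation adjusted p = 0.016). Turning changes both genes at once, so this is no separate support. Without wild type 7 and wild type 8, r was 0.404 (permutation p = 0.169). Abca1 went with Mylip, which like Abca1 is a target of the sterol sensor LXR (r = 0.617, rho = 0.626, permutation adjusted p = 0.0392 and 0.0349). This too rested on few mice, with r = 0.323 without wild type 9 and wild type 6 (permutation p = 0.305), and 15.8% of all other features were as closely correlated with Abca1. The call ended without wild type 1, 4, 5, 6 or 9 or Lpl+/- 6 or 7, each left out alone (permutation adjusted p from 0.0509 to 0.189). It also ended with quantile normalization (0.0623), with no group mean removed (0.0769), without the 3 arrays richest in limit values (0.0514) and with the replicate block (0.0699), so that Abca1 with Mylip passed in 12 of 23 alternatives.

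**Figure D5:**
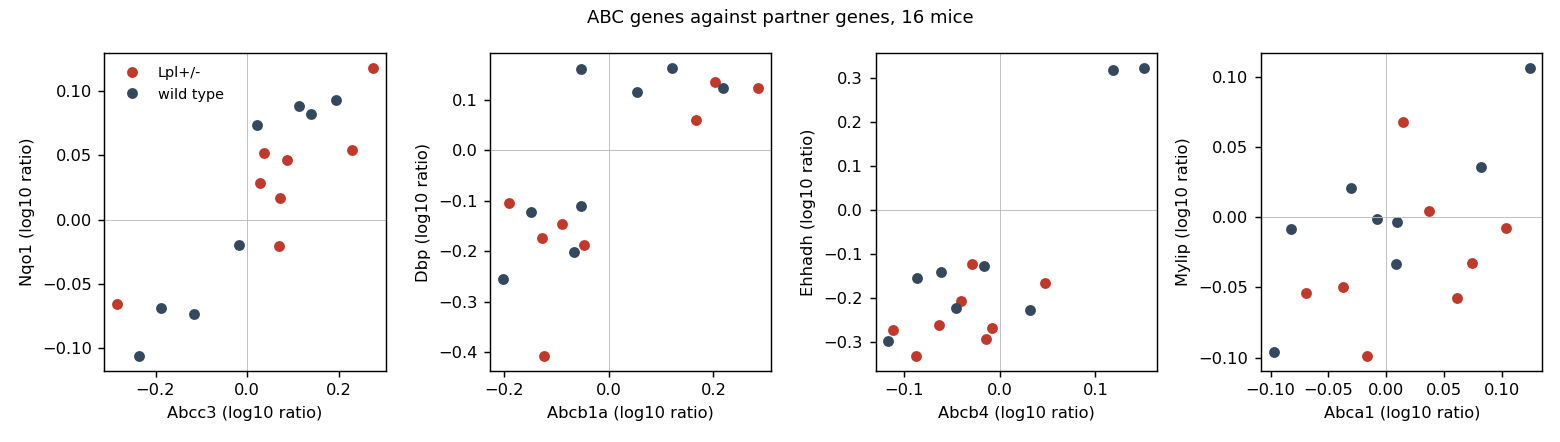
Values of 4 ABC genes (horizontal axes) against their partner genes (vertical axes) in 16 mice, as log10 ratios of mouse over pool, with Lpl+/- mice in red and wild type mice in blue. Abcc3 and Nqo1 rise together over the whole range, Dbp splits the mice into sets that differ in Abcb1a, and Abcb4 with Ehhadh rests on wild type 7 and wild type 8.

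The other 6 relations did not pass. Abca1 with Abcg1, which share a regulator, had r = 0.0465 (rho = 0.0765, permutation adjusted p = 0.949, r = -0.272 without 2 mice). Abcd2 with Abcd3 had r = 0.0412 (rho = 0.176, permutation adjusted p = 0.949, r = -0.00805 without 2 mice) and Abcc3 with Abcc4 r = -0.0189 (rho = -0.0588, permutation adjusted p = 0.949, r = -1.97e-05 without 2 mice). The canalicular exporters Abcc2 and Abcg2 had r = 0.522 (rho = 0.503, permutation adjusted p = 0.112, r = 0.393 without 2 mice). Abcc9 with Lrat, a stellate cell gene, had r = 0.405 (rho = 0.512, permutation adjusted p = 0.193, r = 0.369 without 2 mice) and passed only without Lpl+/- 5 (permutation adjusted p = 0.0302). For Abcb1a with Abcb1b the permutation adjusted p over this family was 0.862.

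Genes of the same pathways that are no ABC genes did not pass the threshold either. In the list of cholesterol efflux and LXR genes, 0 of 13 were called and 2 were at an unadjusted p under 0.05, both lower in Lpl+/- livers. Over all features 5.6% reached that p, 820 higher and 1243 lower. The 2 of this list were Apoa1, the acceptor of cholesterol from Abca1, and Pltp, a phospholipid transfer protein of plasma. They stood at 0.822-fold and 0.741-fold (limma adjusted p = 0.836 each). In the list of xenobiotic and oxidant response, 0 of 16 were called and 1 was at an unadjusted p under 0.05, the hepatic uptake carrier gene Slco1b2 at 1.19-fold (limma adjusted p = 0.836). Nqo1 stood at 1.05-fold (limma adjusted p = 0.913). Of PPAR alpha and peroxisome genes 0 of 11 measured were called, with 4 higher and 7 lower, and of ABC proteins under other symbols and their partners 0 of 6, with 5 higher and 1 lower. At an unadjusted p under 0.05 both lists had 0. Among 7 lists of cell type markers 0 members were called, and 2 were at an unadjusted p under 0.05, the neutrophil gene Ngp at 0.844-fold and Lrat at 0.861-fold in Lpl+/- livers (limma adjusted p = 0.836 each).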

How the data were processed

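Per the labels' protocols, total liver RNA was purified on RNeasy columns, treated with DNase and amplified with aminoallyl labelling, and each mouse carried Cy5 and the pool Cy3. The values deposited by the authors are log ratios taken as log10, since they end at 2 in size in either direction. The log base, the scanner, the background correction, the normalization and the joining of dye swaps are not given in the sources used here. Values were used as deposited. Of 39556 probes, 23283 had 1 symbol, 16273 had none and 0 had several in the platform annotation. Probes of 1 symbol were averaged to 36824 features, with no filter. Of 93 list genes, 87 were measured.

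Groups were compared with limma 3.58.1 in R 4.3.3 (lmFit and eBayes, two-sided) over all features with Benjamini-Hochberg adjustment, and for single genes by exact permutation (two-sided, all 12870 assignments of the mice) (scripts in numpy 2.4.6 and scipy 1.17.1). Correlations used deviations from group means, with 100000 permutations of the mice within groups, two-sided. The mice are separate animals. Precision is limited by the number of arrays. Replicate numbers were not taken as pairs: of 7 shared numbers, 3 had deviations correlated over 0.1. On simulated arrays with 36824 independent, normally distributed features, 67, 67 and 66 drawn at random were changed by 0.1, 0.2 and 0.3 between Lpl+/- and wild type. Of these, 61.2%, 85.1% and 98.5% were recovered. So many true changes ease the Benjamini-Hochberg threshold, whereas 6 features were called in the real comparison, so recovery there may be lower. Real features are correlated over the mice. The median SD of the ABC genes (0.0527) is above that of all features (0.0417), so these shares need not hold for ABC genes.

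Genes given with values of both groups were, by rule, the 6 with the smallest p, the 6 most and 3 least variable, those on chromosome 8 and 8 chosen for their roles. Members, lists and relations were chosen with earlier results of these data known. Alternatives chosen after seeing the data turned the signs for gene pairs and Dbp sets and left Lpl+/- 4 out of the Abca14 SD. Each result was recomputed with other centring, quantile normalization, single probes, filters, variance, array weights, the replicate numbers, signs, the pool as control and each mouse left out, and without the 3 arrays richest in limit values.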

Additional observations from a re-analysis of the deposited data

Results flagged for a closer look

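In 88 groups of 8 mice, 2 for each of the 44 ABC genes, 7 held a mouse well apart from the rest of its group. Chance gives about 4.4 for normally distributed values. The share over all features is not given here, so the count cannot be read as particular to ABC genes. Of the 7, 5 were Lpl+/- 4. It was the highest Lpl+/- mouse in Abca2 at 0.0932 (next mouse 0.0078), in Abca4 at 0.102 (next mouse 0.0227), in Abcc5 at 0.0871 (next mouse 0.0236) and in Abcc8 at 0.0720 (next mouse 0.0166). It was the lowest in Abcc3 at -0.284 (next mouse 0.0281). Wild type 9 was the highest wild type mouse in Abca15 at 0.0599 (next mouse 0.0137), and wild type 6 in Abcb8 at 0.0883 (next mouse 0.0140). Genes of 1 mouse share an array, so the flags are not independent.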

How the results depend on the processing

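No ABC gene was called under any of the 29 alternatives to the group comparison. In 79 of 1245 values of single genes under these the sign of the difference turned, none of them called, and no value moved by more than the SD between mice. The count of ABC genes at an unadjusted p under 0.05 was 2, and between 1 and 5 when 1 mouse was left out. Leaving out Lpl+/- 1, 3, 7 or 8 or wild type 2, 5 or 9 gave 1, wild type 4 gave 4 and Lpl+/- 6 gave 5. With single probes it was 4, but there each gene was read by its probe of smallest p, which favours a higher count. It was 1 of 13 genes left with the filter on size, 0 with the replicate block (14 arrays) and 0 with the same 14 arrays and no block. It was 1 without the 3 arrays richest in limit values and 1 after turning the sign of wild type 5. It was 7 for Lpl+/- against the pool alone, and the share of all features there is not given here. The median difference of 0.00339 became 0.0167 with the filter on size, which left 13 genes, and lay between 2.54e-04 and 0.00663 when 1 mouse was left out.

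The count of called features was 6, and between 1 and 9 when 1 mouse was left out. It was 1 without Lpl+/- 2 or wild type 8, 2 without Lpl+/- 8 or wild type 1 or 4, and 3 without Lpl+/- 1 or 5 or wild type 2, 5 or 7. It was 0 with quantile normalization and 0 with robust and trended variance, 2 with the filter on size and 1 with the replicate block, 1 with the same 14 arrays and no block, and 1 without the 3 arrays. After turning the sign of wild type 8 it was 3, and 23 against the pool alone. The Lpl check, a difference of -0.378, lost its call with quantile normalization (-0.436), robust and trended variance (-0.378), the replicate block (-0.343, limma adjusted p = 0.235), the same arrays with no block (-0.343) and without the 3 arrays (-0.364). With 1 mouse left out it lay between -0.404 and -0.352, and the call ended without wild type 8 (limma adjusted p = 0.0526) or Lpl+/- 2 (limma adjusted p = 0.0577).

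Relations called were 4, between 3 and 5 when 1 mouse was left out, and 1 with the replicate block, which leaves 14 arrays. There, Abcc3 with Nqo1 had r = 0.882 (permutation adjusted p = 0.0615). Of the 7 shared numbers, 1 had its mice correlate best with each other. The cause of these changes was not tested, apart from the fewer genes or mice that the filters and subsets leave. Signal over background is not given, so dim probes could not be told from steady genes.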
